A study of Mus musculus with 15 samples.

Results

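Matrix metalloproteinases (MMPs) and their tissue inhibitors (TIMPs) were described in mouse bone marrow-derived macrophages (BMDMs) through 10 genes, chosen by name from the expression table: the proteinases *Mmp2*, *Mmp8*, *Mmp9*, *Mmp12*, *Mmp13*, *Mmp14* and *Mmp19* and the inhibitors *Timp1*, *Timp2* and *Timp3*. They are 10 of the 20089 genes analysed, and all 10 passed the filter on low values. The RNA-seq series compared BMDMs given RANKL, the cytokine that turns these precursors into bone-resorbing osteoclasts, with BMDMs given lipopolysaccharide (LPS), a bacterial product that puts them into an inflammatory state, for 4 h or 3 d. The cells came from wild-type C57BL/6 mice, whose age and sex the labels do not give, and all 5 groups received M-CSF, the growth factor that makes and keeps macrophages. The groups, of 3 samples each, were control (M-CSF alone), RANKL 4 h, RANKL 3 d, LPS 4 h and LPS 3 d, each with M-CSF, after a first 3 d in M-CSF. No group had M-CSF alone for a further 3 d, so time in culture and stimulus cannot be told apart in the 3 d groups.

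MMPs are zinc-dependent proteinases made as inactive precursors, which cut collagens, gelatin, elastin and other matrix proteins outside the cell once their propeptide is removed. TIMPs bind the active site of MMPs and block it, and TIMP2 also takes part in the activation of pro-MMP2 by the membrane-bound MMP14. In bone, MMP9 is a well-known product of osteoclasts, MMP13 is the main rodent collagenase of osteoblasts and hypertrophic cartilage, MMP8 is stored in neutrophil granules, and MMP12 is the elastase of macrophages.

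Levels are given as the deposited FPKM (fragments per kilobase of exon, scaled to the mapped reads of the library), which allows genes to be compared per length. The 15 samples held 18306184 to 20330207 fragments on the listed genes, and the 10 genes had between 192 fragments (*Mmp2*, control replicate 3) and 164316 fragments (*Mmp9*, RANKL 3 d replicate 3) in a sample. Between replicates of a group, a chi-square of the fragments exceeded sampling noise 6.87 to 46.3 times (median over genes), so no samples were duplicates. Differences are log2 fold changes on the log2(FPKM + 0.1) scale from 1 limma fit of the 15 samples, with Benjamini-Hochberg adjustment over 11743 genes, and a gene rose or fell where its fold change was above 1.5 or below 0.66 and its adjusted p was under 0.05. For single genes, 3 samples against 3 allow no exact permutation p below 0.1. Each limma p rests on the spread between the numbered samples within groups, pooled over all groups and partly shared across genes. Leaving out a sample of a group outside a comparison can thus lose a call while the fold change stays the same. The labels do not say whether the 3 numbered samples of a group came from separate animals. In LPS 4 h the median of all genes tested lay at -0.52 on the log2 scale against control, and in RANKL 3 d at 0.16, LPS 3 d at 0.08 and RANKL 4 h at 0.00, so a fall in LPS 4 h is read against that shift. As checks of the stimuli, 8 of 9 osteoclast markers rose in RANKL 3 d and 10 of 10 LPS response genes rose in LPS 4 h. All macrophage markers were above 0 in every group, summing to 7985 to 9793 FPKM in control, and markers of neutrophils and their precursors summed to 7938 to 24445 FPKM there. LPS 3 d replicate 3 stood apart from the other LPS 3 d samples, with macrophage markers at 17687 FPKM against 6337 and 8228, and stromal markers at 634 FPKM against 159 and 179.

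The members lie on 7 chromosomes of GRCm38 in the GENCODE M21 annotation, which need not be the annotation behind the deposited values. *Mmp13* (chromosome 9, 7272514 to 7283331, plus strand, 10 exons), *Mmp12* (7344381 to 7369499, plus strand, 10 exons) and *Mmp8* (7558456 to 7568485, plus strand, 10 exons) belong to a cluster of 10 *Mmp* genes within 427072 bases. Of the 7 other genes of that cluster, *Mmp27*, the next gene after *Mmp8*, reached 83.2 FPKM in a sample, *Mmp10* 3.09 FPKM, *Mmp3* 1.54 FPKM, and the rest at most 0.0873 FPKM. *Mmp2* lies on chromosome 8 (92827291 to 92853420, plus strand, 13 exons), *Mmp9* on chromosome 2 (164940780 to 164955850, plus strand, 13 exons), *Mmp14* on chromosome 14 (54431612 to 54445364, plus strand, 10 exons) and *Mmp19* on chromosome 10 (128790910 to 128800824, plus strand, 9 exons). *Timp1* lies on chromosome X (20870166 to 20874735, plus strand, 6 exons), *Timp2* on chromosome 11 (118301069 to 118355740, minus strand, 5 exons) and *Timp3* on chromosome 10 (86300372 to 86349506, plus strand, 5 exons). Whether the counting used strand is not stated, which matters most for *Timp1*: the gene *Syn1* overlaps it on the opposite strand and was listed at 3.73 to 12.5 FPKM. *Syn3*, which overlaps *Timp3*, had at most 0.0226 FPKM, *Mmp1b*, which overlaps *Mmp12*, at most 0.0488 FPKM, and *Tmem198b*, which overlaps *Mmp19*, at most 3.81 FPKM. *Gm47093* and *Cep295nl*, which overlap *Mmp19* and *Timp2*, were not analysed here.

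The promoters of *Mmp13* and *Mmp14* are shown because these were the 2 members with the largest rises in LPS 4 h. Each line gives the 150 bases before the RefSeq start on GRCm38.p6, 5′ to 3′ on the plus strand, chr9:7272364-7272513 for *Mmp13* and chr14:54431448-54431597 for *Mmp14*, with matches to a searched motif in capitals.
Mmp13: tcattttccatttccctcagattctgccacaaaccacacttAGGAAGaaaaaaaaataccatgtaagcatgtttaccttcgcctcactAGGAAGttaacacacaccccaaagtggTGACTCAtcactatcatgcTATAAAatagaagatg
Mmp14: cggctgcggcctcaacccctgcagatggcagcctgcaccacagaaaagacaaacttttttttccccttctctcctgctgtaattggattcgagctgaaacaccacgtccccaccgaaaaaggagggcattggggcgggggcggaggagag
The motifs searched, on both strands and in the 250 bases before the start, were TGANTCA (the core of AP-1 sites), AGGAAG (an ETS-type core), TATAAA (the TATA box) and the kappaB consensus, and no match overlapped another. RefSeq promoters were held for 7 of the 10 members in 8 entries (*Mmp12* has 2 starts), and *Mmp2*, *Mmp9* and *Mmp19* had no entry. In *Mmp13*, counted from the start, TGACTCA stood at -35 to -29, TATAAA at -16 to -11 and AGGAAG at -109 to -104 and -62 to -57. TGANTCA was also found before the other start of *Mmp12*, at -44 to -38, and kappaB before its first-listed start, at -129 to -120. AGGAAG was found in *Mmp8*, *Mmp12*, *Mmp14*, *Timp1* and *Timp3* as well, and no motif in *Timp2*. Among 32851 promoter windows of the same length, 6.75% held TGANTCA, 12.4% TATAAA, 29.5% AGGAAG and 7.25% kappaB, and these matches describe the letters only.

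In control BMDMs *Mmp12* was the highest of the 7 MMP genes, at 278 ± 109 FPKM (SD, n = 3, as for all values given in this way), which is 40.2% to 50.6% of the summed MMP level of each sample. *Mmp13* followed at 100 ± 47.5, *Mmp8* at 91.0 ± 62.3, *Mmp9* at 55.3 ± 47.5, *Mmp14* at 38.9 ± 26.2, *Mmp19* at 28.3 ± 6.11 and *Mmp2* at 5.02 ± 2.80 FPKM. Of the inhibitors, *Timp2* was highest at 122 ± 12.5 FPKM, before *Timp1* at 47.0 ± 40.9 and *Timp3* at 8.89 ± 7.23. The replicates of a group were close for *Timp2* and *Mmp19* (within-group SD of 0.23 and 0.30 on the log2 scale) and far apart for *Timp1*, *Mmp9* and *Timp3* (0.99, 0.93 and 0.90).

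**Figure D1:**
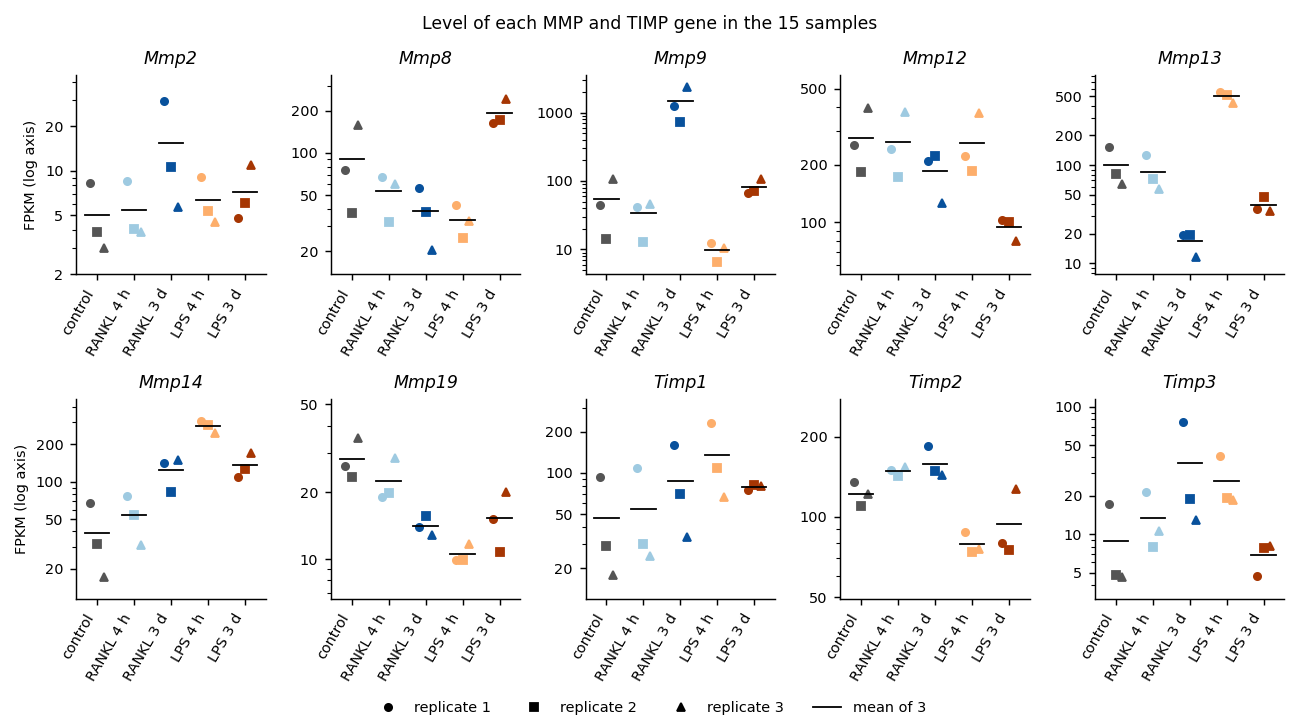
FPKM of each of the 10 genes (vertical log axis, range set per gene) in the 5 groups, with 1 point per sample shaped by replicate number and a line at the mean of 3. *Mmp9* in RANKL 3 d, *Mmp13* in LPS 4 h and *Mmp8* in LPS 3 d lie above every sample of the other groups, whereas *Timp1* in 4 of the 5 groups is spread by replicate number.

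The counts of members that moved differed between stimuli and times. In RANKL 4 h none of the 10 members rose or fell in the limma fit, where 0.111% of all genes tested rose and 0.00852% fell. At an unadjusted p under 0.05 there were 583 genes and no member past the fold limits, and limma voom on recovered fragments also gave 0 members. Their log2 fold changes ran from -0.60 (*Mmp8*) to 0.73 (*Timp3*). In RANKL 3 d, 3 members rose (*Mmp9*, *Mmp14*, *Timp3*), against 16.6% of all genes, and 2 fell (*Mmp13*, *Mmp19*), against 7.54%. In LPS 4 h, 4 rose (*Mmp13*, *Mmp14*, *Timp1*, *Timp3*), against 8.43%. There, 4 fell (*Mmp8*, *Mmp9*, *Mmp19*, *Timp2*), against 39.7%. In LPS 3 d, 2 rose (*Mmp8*, *Mmp14*), against 13.0%, and 3 fell (*Mmp12*, *Mmp13*, *Mmp19*), against 14.4%. The median log2 fold change of the members was 0.68 in RANKL 3 d, 0.16 in LPS 4 h and 0.22 in LPS 3 d, each above the median of all genes tested. Centring the samples by their median genes changed these splits. The LPS 4 h background became 15.9% up and 13.0% down and the members 4 up and 1 down. Those of RANKL 3 d became 9.94% and 12.2% with 2 up and 3 down, and those of LPS 3 d 10.3% and 16.1% with 1 up and 3 down.

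**Figure D2:**
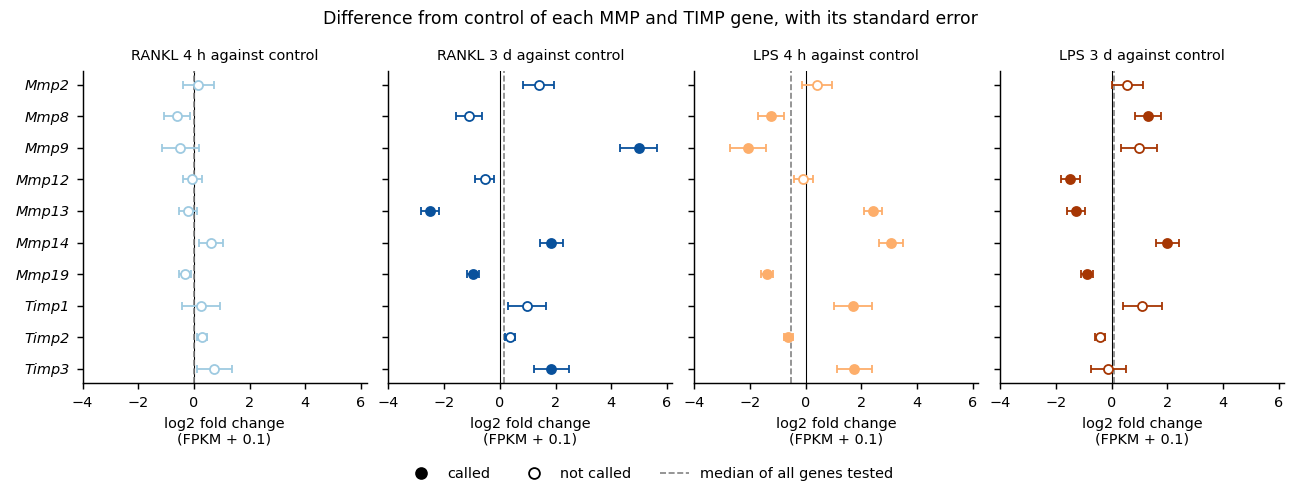
Log2 fold change against control on the log2(FPKM + 0.1) scale, with its standard error, for each member in the 4 stimulated groups; filled points rose or fell and the dashed line is the median of all genes tested. *Mmp14* lies to the right of 0 in RANKL 3 d and at both LPS times and *Mmp19* to the left, whereas *Mmp13* and *Mmp9* lie on opposite sides in different groups.

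Of the gelatinases, which cut denatured collagen and basement membrane collagen, *Mmp9* had the widest range of all members, 146-fold between its highest and lowest group means. It had 44.3, 14.1 and 107 FPKM in the control samples, 42.1, 12.8 and 45.7 in RANKL 4 h and 1245, 719 and 2394 in RANKL 3 d (replicates 1, 2 and 3 in this order, here and below). Under LPS, *Mmp9* had 12.6, 6.51 and 10.7 FPKM at 4 h and 66.9, 70.5 and 109 FPKM at 3 d. All RANKL 3 d samples lay above every other sample and all LPS 4 h samples below every control sample, while control and LPS 3 d overlapped. The rise in RANKL 3 d was 31.6-fold (log2 4.98 ± 0.65 SE, adjusted p = 0.000136), and it was log2 4.22 without control replicate 2 and 5.68 without control replicate 3. In LPS 4 h it fell by 2.08 ± 0.65 (adjusted p = 0.0138), which is -1.55 relative to the median gene. That call was lost without control replicate 3 (-1.38, adjusted p = 0.0755), without LPS 4 h replicate 2 (-1.80, adjusted p = 0.0536) and with such centring of the samples (-1.51, adjusted p = 0.0929), and without control replicate 2 the value was -2.84. It held with the replicate number as a block in the fit (adjusted p = 0.000433). In LPS 3 d the log2 fold change was 0.97 (adjusted p = 0.262).

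In RANKL 3 d the osteoclast marker list was high with *Mmp9*: it summed to 1002 to 3079 FPKM there and to 141 to 235 FPKM in control. In RANKL 3 d both were lowest in replicate 2 and highest in replicate 3. *Calcr*, the calcitonin receptor gene that marks mature osteoclasts, was listed at 0 in all control samples. In LPS 4 h, where *Mmp9* fell, the sum was 161 to 233 FPKM, close to control. Among the control samples the sum was highest in replicate 1 and *Mmp9* in replicate 3. Since these are bulk samples, more cells of a type and more RNA per cell cannot be told apart here or below.

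*Mmp2*, the other gelatinase, was the lowest MMP member in each group but RANKL 3 d, with 8.22, 3.85 and 2.99 FPKM in control, 8.54, 4.02 and 3.84 in RANKL 4 h and 29.9, 10.6 and 5.69 in RANKL 3 d. Under LPS, *Mmp2* had 9.14, 5.36 and 4.5 FPKM at 4 h and 4.78, 6.01 and 10.9 FPKM at 3 d. Replicate 1 was highest in each group but LPS 3 d, and control and RANKL 3 d overlapped. Its log2 fold change in RANKL 3 d was 1.39 ± 0.55 (adjusted p = 0.0692), which did not pass, and with the replicate number as a block it did (adjusted p = 0.029). Without RANKL 3 d replicate 1 it was 0.75 and did not pass, and it passed without RANKL 3 d replicate 3 (1.94, adjusted p = 0.0219) or control replicate 1 (1.81, adjusted p = 0.0439). Stromal and fibroblast markers moved in the same samples: 12 of 18 rose in RANKL 3 d, and their sum was 421, 256 and 192 FPKM in control and 2391, 1092 and 525 FPKM in RANKL 3 d, with none of the 18 at 0 in either group. Their part in the *Mmp2* values was not tested.

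Of the collagenases, which cut intact fibrillar collagen, *Mmp13* moved in opposite directions at the 2 LPS times. It had 154, 81.8 and 64.6 FPKM in control, 127, 71.8 and 57.2 in RANKL 4 h and 19.4, 19.4 and 11.6 in RANKL 3 d. Under LPS, *Mmp13* had 557, 519 and 426 FPKM at 4 h and 35.7, 46.8 and 34.2 FPKM at 3 d. Apart from control and RANKL 4 h, no groups overlapped: the LPS 4 h samples were the highest, then control and RANKL 4 h, then LPS 3 d, and the RANKL 3 d samples were the lowest. *Mmp13* rose 5.32-fold in LPS 4 h (log2 2.41 ± 0.33, adjusted p = 3.59e-05). It fell 5.69-fold in RANKL 3 d (log2 -2.51, adjusted p = 0.000136) and 2.42-fold in LPS 3 d (log2 -1.28, adjusted p = 0.00842). All 3 calls held when any 1 of the 15 samples was left out.

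*Mmp8*, the neutrophil collagenase, had 76.0, 37.5 and 159 FPKM in control, 66.9, 32.2 and 60.6 in RANKL 4 h and 56.7, 37.7 and 20.5 in RANKL 3 d. Under LPS, *Mmp8* had 43.0, 24.8 and 32.6 FPKM at 4 h and 164, 172 and 241 FPKM at 3 d. The LPS 3 d samples lay above every other sample, control replicate 3 coming next, and the other groups overlapped with control. Its rise in LPS 3 d was 2.46-fold (log2 1.30 ± 0.47, adjusted p = 0.0437) and its fall in LPS 4 h 2.35-fold (log2 -1.23, adjusted p = 0.0346; -0.71 relative to the median gene). Neither was firm. The rise was lost in 8 of 15 omissions of 1 sample, with a largest adjusted p of 0.2 without control replicate 2 (log2 0.78), and it was log2 1.12 (adjusted p = 0.106) without LPS 3 d replicate 3, the sample that stood apart. The fall was lost in 4, with a largest adjusted p of 0.183 without control replicate 3 (log2 -0.71), and had an adjusted p of 0.0207 with the replicate number as a block. With centring both were lost, at 1.22 (adjusted p = 0.0619) and -0.67 (adjusted p = 0.299). For RANKL 3 d the log2 fold change was -1.12 (adjusted p = 0.0828), which passed with centring (-1.34, adjusted p = 0.0473), without control replicate 2 (-1.64, adjusted p = 0.0175) and without RANKL 3 d replicate 1 (-1.46, adjusted p = 0.0487).

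In LPS 3 d the markers of neutrophils and their precursors did not follow *Mmp8*. Their sum was 154 to 1826 FPKM in LPS 3 d, where *Mmp8* was highest, and 7938 to 24445 FPKM in control, and 13 of 13 fell in LPS 3 d. *Mmp25*, another MMP of neutrophils and no member, fell as well, from 7.71 ± 4.97 FPKM in control to 0.562 ± 0.350 in LPS 3 d (log2 -3.45, adjusted p = 0.000434). After 3 d of RANKL 6 of 13 markers fell, and their sum was 1912 to 7682 FPKM. Within RANKL 4 h, RANKL 3 d and LPS 4 h the replicates had the same order for *Mmp8* and for this sum. In control and LPS 3 d the order differed, and the part of neutrophils in the *Mmp8* values was not tested.

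*Mmp12*, the macrophage elastase, was lower after 3 d of LPS. It had 254, 183 and 396 FPKM in control, 243, 174 and 378 in RANKL 4 h and 210, 223 and 126 in RANKL 3 d. Under LPS, *Mmp12* had 223, 186 and 372 FPKM at 4 h and 102, 100 and 80.2 FPKM at 3 d. All LPS 3 d samples lay below every other sample, and at 4 h each sample was close to the control with the same number. The fall in LPS 3 d was 2.81-fold (log2 -1.49 ± 0.34, adjusted p = 0.0043) and held in all 15 omissions of 1 sample. The differences in RANKL 3 d (log2 -0.54, adjusted p = 0.24) and LPS 4 h (log2 -0.08, adjusted p = 0.848) did not pass.

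*Mmp14*, the membrane-bound MMP that cuts collagen at the cell surface and activates pro-MMP2, rose in 3 of the 4 stimulated groups. It had 68.0, 31.6 and 17.2 FPKM in control, 77.4, 54.4 and 31.3 in RANKL 4 h and 143, 82.6 and 149 in RANKL 3 d. Under LPS, *Mmp14* had 307, 288 and 248 FPKM at 4 h and 110, 126 and 171 FPKM at 3 d. Every sample of those 3 groups lay above every control and RANKL 4 h sample, and LPS 4 h lay above all. The rises were 8.37-fold in LPS 4 h (log2 3.07 ± 0.42, adjusted p = 3.91e-05), 3.99-fold in LPS 3 d (log2 2.0, adjusted p = 0.00255) and 3.61-fold in RANKL 3 d (log2 1.85, adjusted p = 0.00508). They held in all 15 omissions of 1 sample.

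*Mmp19*, a secreted MMP known from blood vessels and leukocytes, fell in the same 3 groups. It had 26.2, 23.4 and 35.1 FPKM in control, 19.1, 19.9 and 28.6 in RANKL 4 h and 14.0, 15.6 and 12.9 in RANKL 3 d. Under LPS, *Mmp19* had 9.93, 9.90 and 11.7 FPKM at 4 h and 15.2, 10.7 and 20.2 FPKM at 3 d. All samples of the 3 groups lay below every control sample. The falls were 2.64-fold in LPS 4 h (log2 -1.40 ± 0.22, adjusted p = 0.000118; -0.88 relative to the median gene), 1.97-fold in RANKL 3 d (log2 -0.98, adjusted p = 0.00496) and 1.87-fold in LPS 3 d (log2 -0.90, adjusted p = 0.00648), and they held in all 15 omissions of 1 sample.

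Of the inhibitors, *Timp1*, the inducible and broadly secreted one, had 93.7, 29.3 and 17.9 FPKM in control, 109, 30.4 and 24.9 in RANKL 4 h and 160, 69.6 and 34.2 in RANKL 3 d. Under LPS, *Timp1* had 231, 108 and 67.2 FPKM at 4 h and 75.0, 81.3 and 80.1 FPKM at 3 d. Control replicate 1 lay above LPS 4 h replicate 3, so the groups overlapped, although each LPS 4 h sample was higher than the control of its number. The rise in LPS 4 h was 3.24-fold (log2 1.7 ± 0.69, adjusted p = 0.047). It was lost in 9 of 15 omissions of 1 sample, with a largest adjusted p of 0.191 without control replicate 3 (log2 1.18), and the value was 2.37 without control replicate 1. The rise held with the replicate number as a block (adjusted p = 0.00168). In RANKL 3 d (log2 0.98, adjusted p = 0.296) and LPS 3 d (log2 1.10, adjusted p = 0.232) it did not pass.

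*Timp2*, which is made by most cells at a steady level, had 135, 110 and 121 FPKM in control, 149, 142 and 154 in RANKL 4 h and 184, 148 and 143 in RANKL 3 d. Under LPS, *Timp2* had 87.5, 74.0 and 75.9 FPKM at 4 h and 79.8, 74.9 and 127 FPKM at 3 d. The LPS 4 h samples lay below and the RANKL samples of both times above every control sample. The fall in LPS 4 h was 1.54-fold (log2 -0.62 ± 0.17, adjusted p = 0.00698), which is -0.10 relative to the median gene. It dropped under the fold limit without control replicate 1 (-0.55), LPS 4 h replicate 2 (-0.58) or LPS 4 h replicate 3 (-0.60), and with centring it was -0.06. The differences in RANKL 3 d (log2 0.37, adjusted p = 0.118) and LPS 3 d (log2 -0.41, adjusted p = 0.0781) did not pass. Without LPS 3 d replicate 3, the sample that stood apart, *Timp2* was -0.65 in LPS 3 d and passed (adjusted p = 0.0014).

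*Timp3*, the inhibitor that binds the extracellular matrix, had 17.2, 4.78 and 4.66 FPKM in control, 21.3, 8.0 and 10.6 in RANKL 4 h and 76.3, 18.9 and 12.9 in RANKL 3 d. Under LPS, *Timp3* had 41.1, 19.4 and 18.6 FPKM at 4 h and 4.74, 7.85 and 8.05 FPKM at 3 d. Replicate 1 was highest in each group but LPS 3 d, the LPS 4 h samples lay above every control sample, and RANKL 3 d overlapped with control. It rose 3.61-fold in RANKL 3 d (log2 1.85 ± 0.63, adjusted p = 0.0399) and 3.34-fold in LPS 4 h (log2 1.74, adjusted p = 0.0288). The call in RANKL 3 d was lost without control replicate 2 (1.55, adjusted p = 0.127), control replicate 3 (1.53, adjusted p = 0.121), RANKL 3 d replicate 1 (1.09, adjusted p = 0.175) or RANKL 3 d replicate 2 (2.09, adjusted p = 0.0509), and with centring (1.63, adjusted p = 0.0769). That in LPS 4 h was lost without control replicate 2 (1.44, adjusted p = 0.104), control replicate 3 (1.42, adjusted p = 0.106) or LPS 4 h replicate 1 (1.37, adjusted p = 0.113), and without control replicate 1 the values were 2.47 in RANKL 3 d and 2.36 in LPS 4 h. Both calls held with the replicate number as a block, in RANKL 3 d (adjusted p = 0.0089) and in LPS 4 h (adjusted p = 0.006).

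The stromal marker sum was likewise highest in replicate 1 of control, RANKL 4 h, RANKL 3 d and LPS 4 h. In LPS 4 h it was 210 to 403 FPKM, beside 192 to 421 FPKM in control, and 0 of 18 of these markers rose or fell there. The median log2 fold change of these markers was 0.09 in LPS 4 h, against -0.52 for all genes tested. The part of stromal cells in the *Timp1* and *Timp3* rises there was not tested. With RANKL for 3 d the stromal sum moved with *Timp3*, and its part in that result was not tested.

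**Figure D3:**
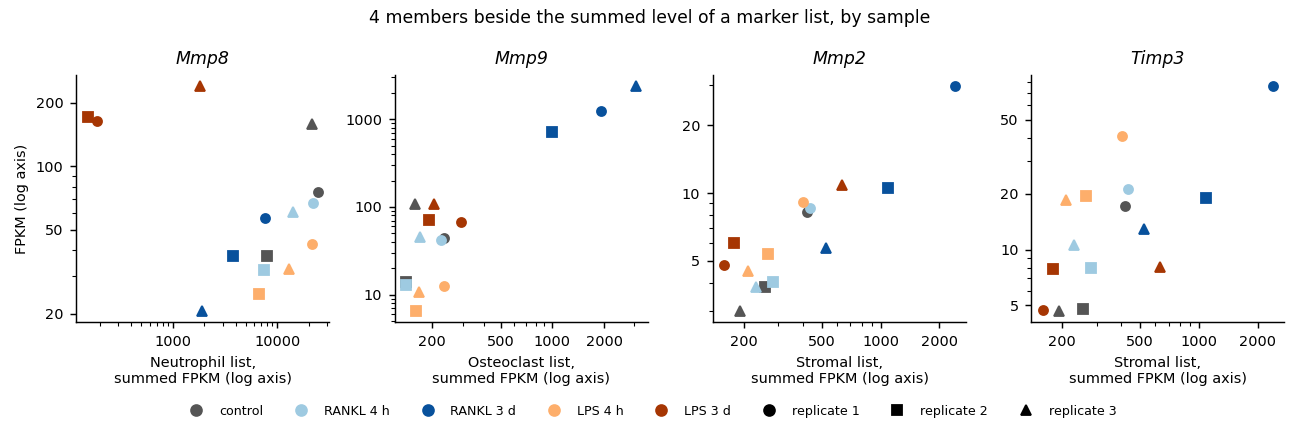
FPKM of *Mmp8*, *Mmp9*, *Mmp2* and *Timp3* (vertical log axis) against the summed FPKM of the neutrophil, osteoclast or stromal marker list (horizontal log axis), 1 point per sample, coloured by group and shaped by replicate number. The LPS 3 d samples combine the highest *Mmp8* with a neutrophil sum of 154 to 1826 FPKM, and RANKL 3 d replicate 1 has the highest stromal sum, *Mmp2* and *Timp3*.

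Comparing the stimuli at the same time asks which members respond differently to RANKL and LPS. After 3 d, 4 members were higher in RANKL than in LPS, against 23.3% of all genes tested: *Mmp9* (16.1-fold, log2 4.01, adjusted p = 0.000233), *Timp3* (3.92-fold, log2 1.97, adjusted p = 0.0207), *Mmp12* (1.93-fold, log2 0.95, adjusted p = 0.0361) and *Timp2* (1.72-fold, log2 0.79, adjusted p = 0.00231). 2 were lower, against 12.8%, namely *Mmp8* (5.36-fold, log2 -2.42, adjusted p = 0.000868) and *Mmp13* (2.35-fold, log2 -1.23, adjusted p = 0.00739). *Mmp14* rose in both groups against control, and the difference between them was -0.14 ± 0.42 (adjusted p = 0.804). For *Mmp19*, which fell in both, the difference was -0.08 ± 0.22 (adjusted p = 0.8). Time in culture, which both groups share, cannot be told apart from the stimuli here. The *Mmp12* call was lost in 5 omissions of 1 sample (largest adjusted p 0.121, without RANKL 3 d replicate 2, and 0.0924 without LPS 3 d replicate 3) and with centring (0.81, adjusted p = 0.0623), which makes 3 up and 2 down. Centring gave 19.0% up and 17.4% down over all genes tested. The call of *Timp3* was lost without RANKL 3 d replicate 1 (1.21, adjusted p = 0.104) or LPS 3 d replicate 1 (1.73, adjusted p = 0.0792).

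After 4 h, 5 of 10 members differed between RANKL and LPS, against 50.0% of all genes tested. *Mmp13* (6.17-fold, log2 -2.63, adjusted p = 1.61e-05) and *Mmp14* (5.49-fold, log2 -2.46, adjusted p = 0.000215) were lower in RANKL. *Mmp9* (log2 1.6, adjusted p = 0.0465), *Mmp19* (log2 1.07, adjusted p = 0.000882) and *Timp2* (log2 0.91, adjusted p = 0.000503) were higher. The median of all genes lay at 0.53 in this comparison, and with centring the last 3 calls were lost and *Timp1* was lower, which makes 0 up and 3 down. Over all genes tested, centring gave 13.5% up and 16.2% down. *Timp1* (log2 -1.45, adjusted p = 0.0828) was also lower with the replicate number as a block (adjusted p = 0.00439). The *Mmp9* call was lost in 10 of 15 omissions of 1 sample, with a largest adjusted p of 0.153 without RANKL 4 h replicate 3 (log2 1.27) and a value of 2.18 without RANKL 4 h replicate 2. With the block its adjusted p was 0.00252.

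Between 4 h and 3 d of RANKL, 4 of 10 members changed, against 23.3% of all genes tested. *Mmp9* rose 44.1-fold (log2 5.46, adjusted p = 6.87e-05), with 4.87 without RANKL 4 h replicate 2, and *Mmp14* 2.37-fold (log2 1.25, adjusted p = 0.0392). *Mmp13* fell 4.90-fold (log2 -2.29, adjusted p = 0.000254) and *Mmp19* 1.57-fold (log2 -0.65, adjusted p = 0.0402). The calls of *Mmp14* and *Mmp19* were lost in 5 and 6 of 15 omissions of 1 sample, and both without RANKL 4 h replicate 3 (adjusted p = 0.146 and 0.151), RANKL 4 h replicate 2, RANKL 3 d replicate 1 or RANKL 3 d replicate 3. With the replicate number as a block *Mmp2* rose too (log2 1.24, adjusted p = 0.0484). With centring the split was 1 up and 2 down, against 9.72% and 11.5% of all genes tested.

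Between 4 h and 3 d of LPS, 6 of 10 members changed, against 58.1% of all genes tested. *Mmp9* (8.29-fold, log2 3.05, adjusted p = 0.000916) and *Mmp8* (5.79-fold, log2 2.53, adjusted p = 0.000297) rose. *Mmp13* (12.9-fold, log2 -3.69, adjusted p = 6.36e-07), *Timp3* (3.63-fold, log2 -1.86, adjusted p = 0.0182), *Mmp12* (2.65-fold, log2 -1.41, adjusted p = 0.00234) and *Mmp14* (2.10-fold, log2 -1.07, adjusted p = 0.0363) fell, while the median gene lay at 0.52. The *Mmp14* call was lost in 5 omissions of 1 sample (largest adjusted p 0.112, without LPS 3 d replicate 1), and that of *Timp3* without LPS 4 h replicate 1 (adjusted p = 0.0792) or LPS 3 d replicate 1 (adjusted p = 0.0689). The difference between the RANKL against LPS contrasts of the 2 times passed the test for 6 of 10 members, against 49.0% of all genes tested, and with centring 5 were up and 1 down (4 and 2 without it). Over all genes tested the up and down shares were 23.8% and 19.4% with centring and 15.4% and 33.7% without it.

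In the order of the 5 group means, the groups next to each other seldom differed. For *Mmp9*, RANKL 3 d lay above LPS 3 d and RANKL 4 h above LPS 4 h. Its steps from LPS 3 d to control and from control to RANKL 4 h did not pass the test. For *Mmp13*, LPS 4 h lay above control, RANKL 4 h above LPS 3 d and LPS 3 d above RANKL 3 d, and control and RANKL 4 h did not differ. For *Mmp14*, LPS 4 h lay above LPS 3 d and RANKL 3 d above RANKL 4 h, the other neighbours not differing. For *Mmp8* the step from LPS 3 d to control, and for *Mmp12* that from RANKL 3 d to LPS 3 d, passed the test. For *Mmp2*, *Mmp19*, *Timp1*, *Timp2* and *Timp3* no neighbouring groups differed beyond their spread.

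The make-up of the summed MMP level differed between groups. *Mmp12* was highest in all 6 control and RANKL 4 h samples, *Mmp9* in all RANKL 3 d samples (72.5%, 64.9% and 88.0% of the sum), *Mmp13* in all LPS 4 h samples (48.0%, 49.9% and 38.5%) and *Mmp8* in all LPS 3 d samples (32.9%, 32.3% and 36.2%). The sum of the 7 MMP genes was 375 to 783 FPKM in control, 369 to 606 in RANKL 4 h, 1108 to 2720 in RANKL 3 d, 1040 to 1161 in LPS 4 h and 499 to 667 in LPS 3 d. RANKL 3 d and LPS 4 h thus lay above all other samples. The sum of the 3 TIMP genes overlapped between groups, at 144 to 246 FPKM in control, 190 to 420 in RANKL 3 d, 162 to 360 in LPS 4 h and 160 to 215 in LPS 3 d. Of the inhibitors, *Timp2* was highest in 12 of 15 samples and *Timp1* in LPS 4 h replicates 1 and 2 and LPS 3 d replicate 2. The MMP sum was 2.56 to 5.44 times the TIMP sum in control and 2.04 to 3.19 times in RANKL 4 h. It was 3.23 to 6.84 times in LPS 4 h and 3.10 to 3.24 times in LPS 3 d. In RANKL 3 d it was 4.09, 4.68 and 14.3 times in replicates 1, 2 and 3, which overlapped with control. These are sums of transcript levels and not of enzyme.

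**Figure D4:**
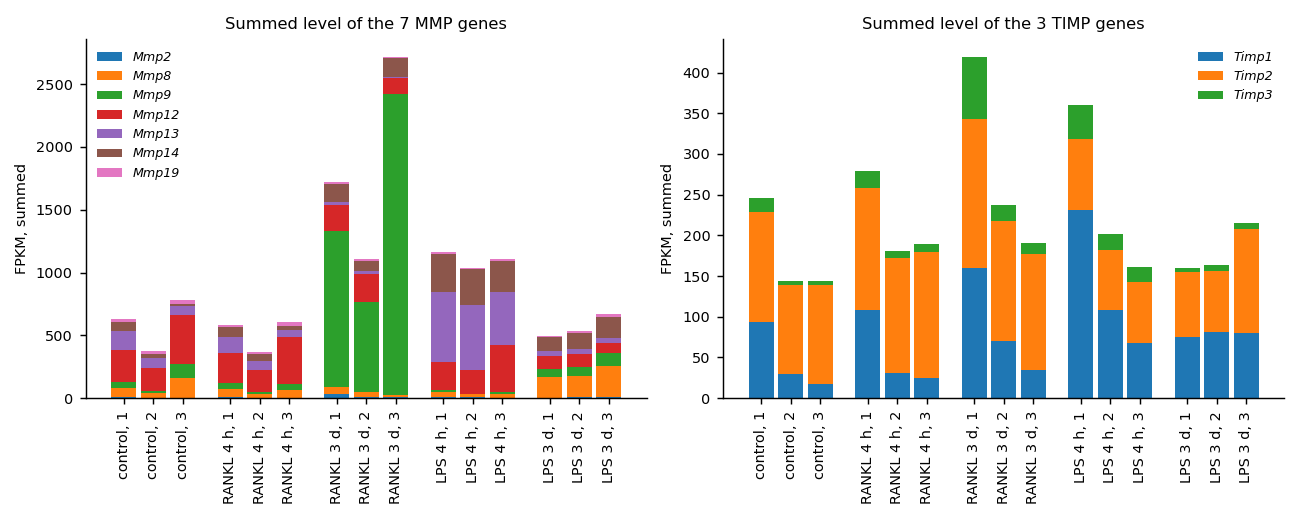
Stacked FPKM of the 7 MMP genes (left) and the 3 TIMP genes (right) in each of the 15 samples, named by group and replicate number. The tallest segment of the MMP bars is *Mmp12* in control and RANKL 4 h, *Mmp9* in RANKL 3 d, *Mmp13* in LPS 4 h and *Mmp8* in LPS 3 d.

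Other genes of the pathway were taken from lists. Of 16 other MMP genes 8 passed the filter on low values: 2 rose and 1 fell in RANKL 3 d, 1 rose and 1 fell in LPS 4 h, 2 rose and 1 fell in LPS 3 d, and 0 in RANKL 4 h, with medians of -0.16, -0.09 and 0.53 in the first 3 comparisons. *Mmp11* rose from 0.216 ± 0.0583 to 0.882 ± 0.350 FPKM in RANKL 3 d (log2 1.6, adjusted p = 0.00106), where *Mmp25* fell (log2 -1.91, adjusted p = 0.0202). *Mmp10* rose in LPS 4 h (log2 1.91, adjusted p = 0.00745) and *Mmp27* fell there (log2 -0.86, adjusted p = 0.0336), and *Mmp3* rose in LPS 3 d (log2 1.95, adjusted p = 0.014) to 0.760 ± 0.689 FPKM. Of 4 other inhibitors the 2 tested, *Reck* and *Tfpi2*, neither rose nor fell against control, and *Timp4* had no group mean above 0.01 FPKM.

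Of 10 genes that activate MMPs or belong to the plasminogen system, which starts proteolytic cascades at the cell surface, 7 were tested. In LPS 4 h 5 rose and 1 fell (median 1.77, all genes -0.52), in LPS 3 d 4 rose and 1 fell (median 0.64), and in RANKL 3 d 2 rose and 2 fell (median 0.87). *Serpinb2*, a plasminogen activator inhibitor, rose in LPS 4 h (log2 3.64, adjusted p = 0.000104) and LPS 3 d (log2 4.44, adjusted p = 7.6e-05). With RANKL for 3 d *Plaur*, the urokinase receptor, fell (log2 -0.98, adjusted p = 0.00521) and *Bsg*, known as the inducer of MMPs EMMPRIN, rose (log2 0.92, adjusted p = 0.0002).

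Of 16 ADAM and ADAMTS proteases, relatives of the MMPs, 15 were tested: 4 rose and 2 fell in RANKL 3 d (median 0.76), 3 rose and 4 fell in LPS 4 h (median -0.10) and 1 rose in LPS 3 d (median 0.11). *Adamts4*, an aggrecanase, rose in LPS 4 h (log2 4.05, adjusted p = 1e-06) and *Adamts10* fell (log2 -1.70, adjusted p = 0.000182). In RANKL 3 d *Adamts12* rose (log2 2.19, adjusted p = 0.00946) and *Adam33* fell (log2 -1.36, adjusted p = 0.0314), and in LPS 3 d *Adam8* rose (log2 0.92, adjusted p = 0.00107). Of 6 surface partners and clearance genes, 2 rose and 1 fell in RANKL 3 d (median 0.56) and in LPS 4 h (median 0.38), and none moved in LPS 3 d (median 0.22). *Cd44*, a surface anchor of MMP9, rose in LPS 4 h (log2 1.31, adjusted p = 1.89e-06) and *Lrp1*, the receptor that clears MMPs and TIMPs, fell there (log2 -1.06, adjusted p = 0.0161). After 3 d of RANKL *Cd82* rose (log2 0.84, adjusted p = 0.00214) and *Lcn2*, whose product binds MMP9, fell (log2 -1.68, adjusted p = 0.0488).

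The tested genes whose pattern was most like each member, by Pearson r over the 15 samples on the log2(FPKM + 0.1) scale, which mixes differences between groups and between replicates, are given as a description. For *Mmp9* they were *Dnm1*, *Padi2* and *Cfap45* (r = 0.97, 0.96 and 0.95), for *Mmp13* *March5*, *Ccl4* and *A530032D15Rik* (0.97 each), and for *Mmp14* *Fcrlb*, *Rgs16* and *Nfkbie* (0.95, 0.93 and 0.92). For *Mmp2* they were *Fstl1*, a gene of the stromal list, *Loxl2* and *Cnn3* (0.98 each), for *Timp3* *Csrp2* and *Col5a3* (0.93 and 0.91), and for *Timp1* *Crabp2*, *Amotl2* and *Lum* (0.89, 0.89 and 0.88). For *Mmp8* they were *Ggt1*, *Smpd5* and *Tmem63a* (0.91, 0.91 and 0.89), for *Mmp12* *Gm8439*, *Cldn1* and *Msra* (0.91 each), for *Mmp19* *Capn1*, *Cped1* and *Fes* (0.95, 0.92 and 0.91), and for *Timp2* *Smtn*, *Man2b1* and *Spag7* (0.95, 0.94 and 0.93). Among the members themselves r was highest for *Mmp14* with *Timp1* and *Mmp2* with *Timp3* (0.77 each) and lowest for *Mmp14* with *Mmp19* (-0.89) and *Mmp9* with *Mmp13* (-0.86).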

How the data were processed

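RNA-seq of BMDMs was analysed in 15 samples, 3 per group, with groups and replicate numbers taken from the labels. The authors deposited FPKM per gene and sample, computed with StringTie and Ballgown according to their methods. The submitters' processing notes name GRCm38.p4 and mm10, and the aligner is not given in the sources used here. The table used here ends at *Tti2*, and genes after it were not analysed here. Whole fragments were recovered from the steps of the FPKM values of a gene (within 0.001, for 14485 of 14485 genes above 0 in at least 3 samples), and they summed to 18306184 to 20330207 per sample.

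The 11743 genes with a mean FPKM of 0.1 or more entered 1 limma 3.58.1 fit of 5 groups in R 4.3.3, on the log2(FPKM + 0.1) scale and with a trend in eBayes. The fit was checked on simulated data with independent samples, a check that does not cover correlation between same-numbered samples. The fold limits are those of the methods, where the authors used edgeR with P under 0.05. The members and gene lists were chosen with earlier results of these data known. The text names all members, the 2 genes of each list with the largest change per comparison among those that passed, the 3 genes most like each member, and overlapping genes, apart from 2 that are not reported here; other cluster, marker and inhibitor genes were named after their values were seen.

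The labels do not say what a replicate number marks. Deviations of same-numbered samples from their group means correlated across 9486 genes between control, RANKL 4 h, RANKL 3 d and LPS 4 h (every r from 0.103 to 0.842) and not with LPS 3 d (-0.229 to 0.184), so the numbers were taken to pair those 4 groups. The fit reported did not use this pairing, so its SE and p-values ignore it, and the replicate block was run as an alternative. Alternatives changed the pseudocount, filter, scaling, block, trend, groups in the fit, p rule and tool (limma voom on fragments), or left out samples. Python 3.11.15 and matplotlib 3.10.9 drew the figures.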

Additional observations from a re-analysis of the deposited data

Results flagged for a closer look

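The RANKL against LPS contrast differed between 3 d and 4 h for 6 of the 10 members, against 49.0% of all genes tested, by a test of that difference itself (an interaction term in the limma fit, adjusted over all genes tested). The count lay near the share of all genes, so it is not read as a trait of the members. Positive values mean that RANKL stood higher against LPS at 3 d than at 4 h. *Mmp8*, the neutrophil collagenase, gave -3.06 on the log2 scale (adjusted p = 0.00168). The inhibitor *Timp3* gave 2.98 (adjusted p = 0.0127; 2.22 without RANKL 3 d replicate 1) and the membrane-bound *Mmp14* 2.32 (adjusted p = 0.00512). *Mmp9* gave 2.41 (adjusted p = 0.0409) and *Mmp13* 1.39 (adjusted p = 0.0214). *Mmp19* gave -1.15 (adjusted p = 0.00706). The *Mmp9* difference was lost in 7 of 15 omissions of 1 sample, at most to an adjusted p of 0.107 (log2 1.82, without RANKL 4 h replicate 2). The *Mmp13* difference was lost without RANKL 4 h replicate 3 (1.15, adjusted p = 0.057) or RANKL 3 d replicate 2 (1.27, adjusted p = 0.0517), and that of *Mmp19* with centring (-0.72, adjusted p = 0.0856).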

How the results depend on the processing

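No difference that passed the test turned in direction under any alternative run: 1149 values kept their call and 156 lost it. Among differences from control that did not pass, 606 kept their side, 14 passed and 18 turned; those of the other comparisons are not in these counts. The cause was not tested for any of these changes. Centring on the median gene left 5 members changed in LPS 4 h (8 without it) and 3 for RANKL 4 h against LPS 4 h (5 without it). For RANKL 3 d against RANKL 4 h, 2 were left with no filter and 2 with eBayes without a trend (4 in the fit reported). Shares of all genes tested were not computed for runs with samples left out, with no filter or with eBayes without a trend. The member counts of those runs are therefore not read as particular to the members. Samples left out by number in every group were chosen after seeing the data. Without number 2 there were 3 in RANKL 3 d, 5 in LPS 4 h, 1 in LPS 3 d, 2 for RANKL 3 d against LPS 3 d, 2 for RANKL 3 d against RANKL 4 h and 3 for the difference of contrasts. Without number 1 the LPS 3 d calls became 4 up and 0 down, with 1 shared: *Mmp8*, *Mmp12*, *Mmp13* and *Mmp19* were lost and *Mmp2*, *Timp1* and *Timp3* gained. Without number 3 there were 3 in LPS 4 h and 2 for RANKL 3 d against RANKL 4 h. Leaving out 1 sample gave 4 to 8 in LPS 4 h (4 without control replicate 3 or LPS 4 h replicate 2) and 2 to 4 for RANKL 3 d against RANKL 4 h (2 without RANKL 4 h replicate 2, RANKL 4 h replicate 3 or RANKL 3 d replicate 1).

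With the replicate number as a block, 0 members changed in RANKL 4 h, 6 in RANKL 3 d, 8 in LPS 4 h and 6 in LPS 3 d, where *Timp1* was added (1.10, adjusted p = 0.032). In that order, the up and down shares of all genes tested were 0.187% and 0.0170%, 18.4% and 8.45%, 8.83% and 40.8%, 13.8% and 15.4%. The block gave 6 for RANKL 3 d against LPS 3 d, 6 for RANKL 4 h against LPS 4 h, 5 for RANKL 3 d against RANKL 4 h, 6 for LPS 3 d against LPS 4 h and 7 for the difference of contrasts. The shares there were 24.3% and 13.4%, 42.2% and 9.41%, 18.0% and 7.62%, 44.8% and 14.5%, and 16.7% and 34.8%. The correlations of same-numbered samples showed no pairing of LPS 3 d with the other groups, and whether these samples are paired is unknown.

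All differences that turned were ones that had not passed in the fit reported. In RANKL 4 h, leaving out 1 sample gave -0.21 to 0.57 for *Mmp2*, -1.24 to 0.22 for *Mmp9*, -0.36 to 0.23 for *Mmp12*, -0.54 to 0.15 for *Mmp13* and -0.41 to 0.92 for *Timp1*. In LPS 4 h it gave -0.37 to 0.21 for *Mmp12*, which was 0.48 with centring. In LPS 3 d it gave -0.44 to 0.50 for *Timp3*, which was 0.74 without number 1 and then passed (adjusted p = 0.0329), and *Mmp2* was -0.070 without number 3. In RANKL 3 d *Mmp12* was 0.0066 without number 3. With centring, 6 differences outside the control comparisons turned too: for LPS 3 d against LPS 4 h *Mmp2* was -0.48, *Mmp19* -0.15 and *Timp2* -0.44, for RANKL 4 h against LPS 4 h *Mmp12* was -0.55, and *Timp2* was -0.14 for RANKL 3 d against RANKL 4 h and 0.30 for the difference of contrasts. The SE of *Timp1* in LPS 4 h was 0.69 without the block and 0.37 with it.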
